A study of Homo sapiens with 26 samples.

Results

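The comparison described here is between 2 human airway epithelial cell lines that differ in the genotype of CFTR and were both kept in high glucose. The cystic fibrosis (CF) line was 16HBEge with the DeltaF508 form of CFTR, and the wild-type (WT) line was 16HBE14o- with WT CFTR. All 11 libraries of the 26 in the series that came from Transwell cultures of either line at 17.5 mM glucose were used, 6 from CF cells and 5 from WT cells, and every gene with enough counts was tested (15579 of the 58735 in the table). Cells of both lines stood on the Transwell membranes for 7 days with fresh medium each day, and each library pooled the cells of 2 membranes. A further 12 libraries, 6 from each line at 5.5 mM glucose, served to show which differences were also present in normal glucose. Each genotype was represented by 1 line, so the effect of the CFTR genotype and any other difference between the lines cannot be told apart. The labels give neither the culture each library came from nor the clone of the edited line, so p-values measure the spread between these libraries, which may be technical.

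CFTR conducts chloride and bicarbonate across the apical surface of airway epithelium, and its loss leaves the airway surface dry and the mucus poorly cleared. The DeltaF508 form lacks a single phenylalanine, folds poorly and is largely degraded in the endoplasmic reticulum before it reaches the cell surface. Many people with cystic fibrosis develop diabetes, in which the glucose of the airway surface rises, and the 16HBE lines form tight, polarized layers on Transwells that allow the lines to be compared under such a concentration.

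The 11 libraries held between 14736391 and 19132475 counts in genes. Within a line, the closest libraries still differed by 2.85 times the variance of counting error, so none was a copy of another. Libraries numbered 1 to 3 stood apart from those numbered 4 to 6 in both lines on the second principal component (15.8% of the variance over the 2000 most variable genes), while the first (55.5%) separated the lines, and the fits carried a term for this split unless stated otherwise. The epithelial identity of the cells was plain: all 7 epithelial markers (EPCAM, CDH1, KRT8, KRT18, KRT19, ELF3 and CLDN4) were abundant and summed to between 5469 and 6029 CPM (counts scaled to a common library total) in WT and between 6397 and 7392 CPM in CF libraries, with 6 of the 7 called higher in CF. The 6 secretory markers were at or near 0, the sums reaching 0.251 CPM in WT and 0.174 CPM in CF, and 5 of them (SCGB1A1, SCGB3A1, SCGB3A2, MUC5AC and BPIFA1) had no count in any of the 11 libraries. Among leukocyte markers the sum stayed at or below 1.32 CPM in WT and 2.15 CPM in CF, and PTPRC had no count in WT. Some markers of other cell types were also read. The 5 endothelial markers summed to at most 29.9 CPM in WT and 49.95 CPM in CF, with 2 called higher. The 7 fibroblast markers summed to at most 42.6 CPM in WT and 31.4 CPM in CF, with 1 called lower. The 4 ionocyte markers reached 12.2 CPM in WT and 8.5 CPM in CF, with 1 called lower. In such bulk libraries, fewer cells of a type and less RNA per cell cannot be told apart.

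The transcript of the altered gene was examined first. CFTR (ENSG00000001626, chromosome 7 from 117465784 to 117715971 on the plus strand of hg38) was read at 634, 661, 722, 691 and 619.9 CPM in the 5 WT libraries and from 588 to 725 CPM (median 646) in the 6 CF libraries. The groups overlapped over nearly their whole range, and the difference did not pass the test (log2 change -0.02, SE 0.047, adjusted p = 0.79, edgeR's quasi-likelihood test with Benjamini-Hochberg adjustment over all tested genes). Within libraries 1 to 3 alone the log2 change was 0.063 (adjusted p = 0.465), and within libraries 4 to 6 alone it was -0.14 and passed the test (adjusted p = 0.0155). A gene count cannot check the genotype itself, because the deletion of 1 codon leaves the transcript in place.

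CF and WT cells differed in a large share of their genes, mostly by little. Of 15579 tested genes, 5357 (34.4%) passed an adjusted p of 0.05, with 2751 (17.7%) higher and 2606 (16.7%) lower in CF. The median size of a called change was 0.34 on the log2 scale, and 3881 of the called genes differed by less than 1.5-fold. Among the 12980 protein-coding genes tested, 38% were called. At least 2-fold changes were found in 250 genes higher and 380 genes lower in CF. All CF libraries lay outside the range of all WT libraries for 2251 genes (14.4%), of which 2221 were also called.

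**Figure D1:**
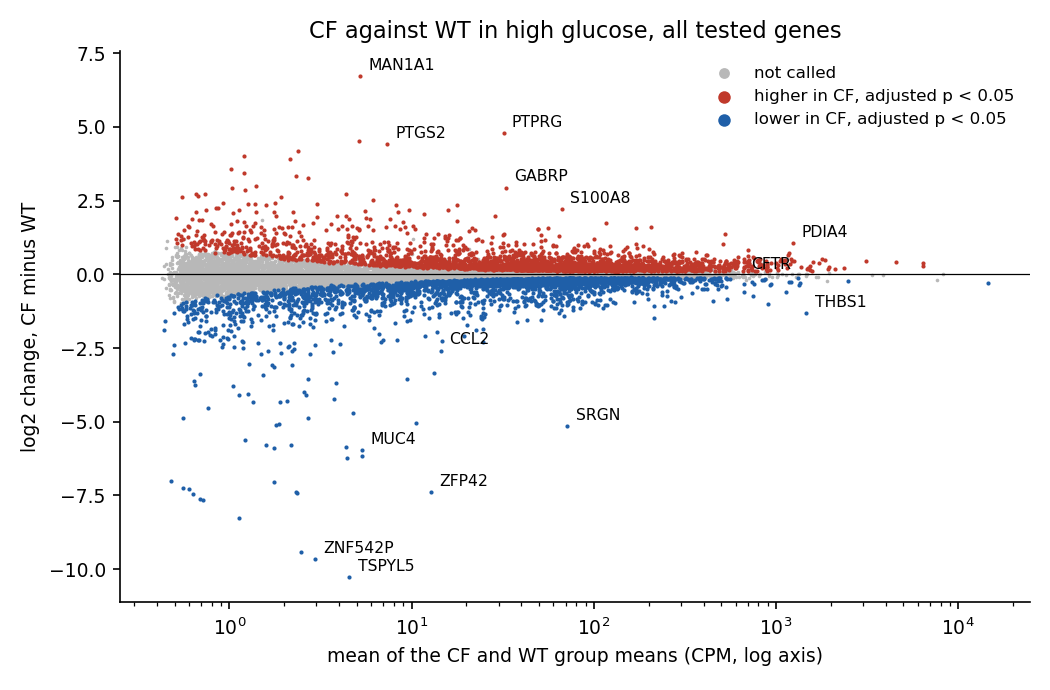
Each point is 1 of the 15579 tested genes, with the mean of the CF and WT levels in high glucose on a log axis in CPM and the log2 change (CF minus WT) on the vertical axis. Red points (2751) are called higher and blue points (2606) lower in CF at an adjusted p of 0.05, and the most extreme points lie on the lower side.

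Several genes of WT cells were almost silent in the CF line. SRGN, which encodes serglycin, the proteoglycan core of secretory granules, stood at 173, 168, 178, 93 and 84.9 CPM in the 5 WT libraries and from 1.9 to 5.29 CPM (median 3.62) in CF, a 35.2-fold difference (log2 change -5.14, SE 0.082, adjusted p = 7.34e-25). WT libraries 1 to 3 were about as high as one another and above WT libraries 4 and 5, and each of the 5 was far above each CF library. MUC4, a membrane-bound mucin of airway epithelium, had 7.87, 7.13, 10.9, 13.9 and 12.7 CPM in WT and from 0.108 to 0.232 CPM (median 0.186) in CF (log2 change -5.96, SE 0.22, adjusted p = 6.26e-18). Here WT libraries 4 and 5 were the high ones, and the CF libraries stayed near 0. ZFP42, a zinc finger factor known as a marker of pluripotent cells, had 26.6, 32.8, 25.4, 21.8 and 20.3 CPM in WT and from 0.0595 to 0.259 CPM (median 0.112) in CF (log2 change -7.40, SE 0.18, adjusted p = 7.17e-22). The remaining genes among the 12 protein-coding genes with the lowest log2 change, no overlap and a mean of at least 5 CPM in either line were TSPYL5, COL22A1, ZFP28, GSTM3, TCIM, FLT4, STXBP6, SYK and ZNF415. They include a glutathione transferase (GSTM3, 8.64 to 0.143 CPM from WT to CF), the receptor of lymphatic growth factors (FLT4, 5.25 to 0.171 CPM) and a kinase of immune receptor signalling (SYK, 7.15 to 0.377 CPM).

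The genes on the other side were led by MAN1A1, a mannosidase of the Golgi that trims N-linked glycans. MAN1A1 (ENSG00000111885, chromosome 6 from 119177209 to 119349761 on the minus strand) was read at 0.352, 0.066, 0, 0 and 0.0502 CPM in WT libraries and from 8.45 to 12.6 CPM (median 10.4) in CF libraries (log2 change 6.74, SE 0.31, adjusted p = 3.24e-14). Its WT counts were 6, 1, 0, 0 and 1, so the size of the change is uncertain: the log2 change was 6.08 in libraries 1 to 3 alone, 8.36 in libraries 4 to 6 alone and 8.21 without WT library 1. None of the WT libraries came near the CF range. PTPRG, a receptor-type tyrosine phosphatase, had 1.65, 3.17, 1.65, 2.23 and 2.36 CPM in WT and from 53.6 to 67.1 CPM (median 64.4) in CF (log2 change 4.80, SE 0.11, adjusted p = 4.92e-21). PTGS2, the inducible cyclooxygenase that starts prostaglandin synthesis, had 0.823, 0.66, 0.66, 0.468 and 0.702 CPM in WT and from 11.8 to 16.6 CPM (median 14.3) in CF (log2 change 4.41, SE 0.16, adjusted p = 4.81e-18). In both genes the WT libraries were uniformly low and the 6 CF libraries uniformly high. The other genes of the highest 12 were DAAM2, GABRP, SLC28A3, SLC12A8, APOD, BST1, TRPV6, S100A8 and PPP4R4. GABRP, the pi subunit of the GABA receptor, which carries chloride in epithelia, differed 7.7-fold (7.36 to 58.7 CPM), and TRPV6, an apical calcium channel, 5.12-fold (2.69 to 13.7 CPM). BST1, an enzyme of NAD breakdown on the cell surface, differed 5.16-fold, from 5.78 to 29.6 CPM.

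**Figure D2:**
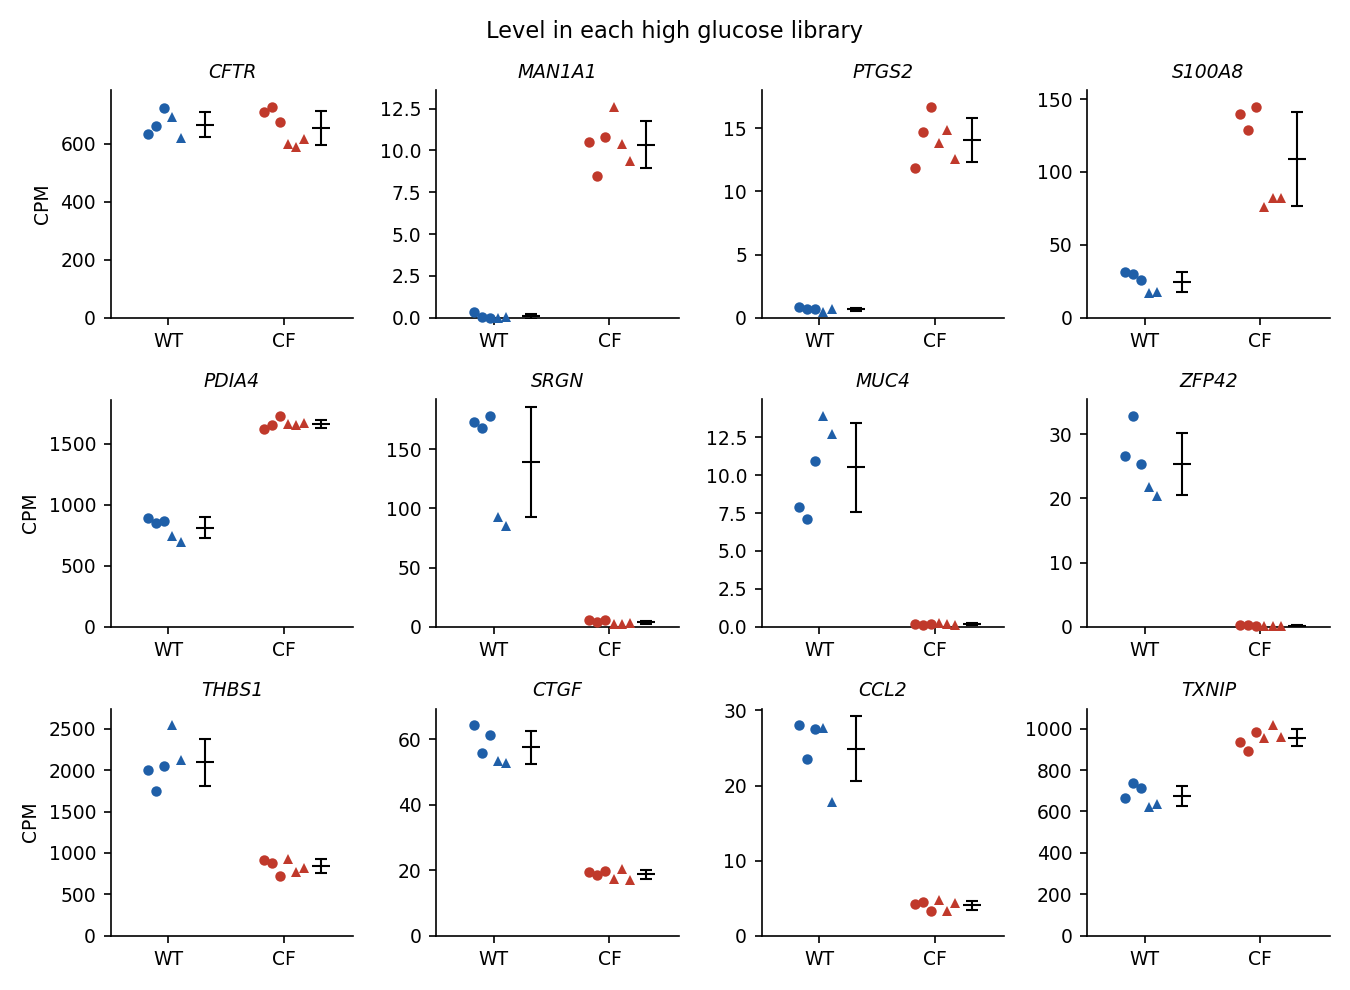
Each panel gives 1 gene in CPM (linear axis from 0) in the 5 WT (blue) and 6 CF (red) libraries in high glucose, circles for libraries 1 to 3 and triangles for 4 to 6, with the mean and SD as a black bar. CFTR overlaps between the lines, whereas all CF libraries lie outside the WT range in the other 11 panels, and the SRGN and S100A8 libraries also separate by number.

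A few genes were detected in 1 line and nearly absent from the other. With a mean under 0.1 CPM in the first line and at least 1 CPM in the other, 1 called gene was on in CF (MAN1A1) and 21 were on in WT, of which 17 were protein-coding. TSPYL5 had no count in any CF library against 811 counts over the WT libraries, which puts it at least 306-fold lower in CF against a floor of 3 counts over the 6 CF libraries. By the same floor the pseudogene ZNF542P was at least 197-fold lower and CNTLN, which encodes a centrosomal protein, at least 166-fold lower. ZSCAN18 and ZNF43, both zinc finger genes of chromosome 19, had 2 counts each over the 6 CF libraries and 5.58, 4.22, 4.57, 3.74 and 5.22 and 4.17, 5.35, 6.55, 2.91 and 4.21 CPM in the WT libraries. In normal glucose TSPYL5 had a mean of 8.68 CPM in WT, ZSCAN18 4.52 CPM and ZNF43 4.57 CPM, and none of the 3 had a count in CF.

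The promoter of the gene on in CF and those of 3 zinc finger genes on in WT are printed here to show the bases around the starts of genes that the lines use so differently. They run from 250 bases before to 50 after the start of the gene (RefSeq, GRCh38.p14), 5′ to 3′ on the gene's strand, and capitals mark each CG pair, the site at which DNA methylation occurs.

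MAN1A1, chr6:119349712-119350011, minus strand: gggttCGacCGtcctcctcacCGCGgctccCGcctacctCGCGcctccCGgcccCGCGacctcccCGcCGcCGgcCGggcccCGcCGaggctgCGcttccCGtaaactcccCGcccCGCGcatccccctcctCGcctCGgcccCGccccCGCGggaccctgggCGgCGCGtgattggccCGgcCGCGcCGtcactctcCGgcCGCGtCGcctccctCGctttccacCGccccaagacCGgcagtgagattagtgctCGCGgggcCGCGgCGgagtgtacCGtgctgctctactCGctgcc
ZNF43, chr19:21836133-21836432, minus strand: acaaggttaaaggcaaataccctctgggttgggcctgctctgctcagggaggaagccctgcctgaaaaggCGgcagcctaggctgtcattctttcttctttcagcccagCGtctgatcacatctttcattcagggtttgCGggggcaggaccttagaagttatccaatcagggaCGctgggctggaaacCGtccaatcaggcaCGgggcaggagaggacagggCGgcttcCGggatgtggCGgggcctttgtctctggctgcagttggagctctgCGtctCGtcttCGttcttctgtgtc
ZNF85, chr19:20923001-20923300, plus strand: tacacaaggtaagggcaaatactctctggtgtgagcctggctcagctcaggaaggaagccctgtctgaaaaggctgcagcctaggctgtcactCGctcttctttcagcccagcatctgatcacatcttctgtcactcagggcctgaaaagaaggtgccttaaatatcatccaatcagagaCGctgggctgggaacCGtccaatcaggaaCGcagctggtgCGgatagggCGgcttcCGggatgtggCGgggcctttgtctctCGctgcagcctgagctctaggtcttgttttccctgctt
ZNF135, chr19:58058989-58059288, plus strand: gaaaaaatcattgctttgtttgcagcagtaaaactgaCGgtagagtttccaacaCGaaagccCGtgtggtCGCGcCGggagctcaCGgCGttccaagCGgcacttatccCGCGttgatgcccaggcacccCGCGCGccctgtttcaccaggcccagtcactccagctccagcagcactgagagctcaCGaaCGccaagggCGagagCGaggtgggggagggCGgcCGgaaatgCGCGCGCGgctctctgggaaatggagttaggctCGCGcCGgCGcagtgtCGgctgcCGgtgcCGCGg

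The MAN1A1 promoter holds 47 CG pairs, that of ZNF135 32, that of ZNF43 12 and that of ZNF85 9. Over the 15 of 17 protein-coding genes on in WT that matched a RefSeq promoter, the median was 12 CG pairs, against 26 over the 10544 of 12980 tested protein-coding genes that matched one. At least 10 CG pairs were present in 66.7% of the former and 88.4% of the latter. The RefSeq start can lie well inside the deposited span of a gene, as it does for ZNF43. Other genes on in WT for which it does include those with 2, 4 and 5 CG pairs, and also those with 20 and 23. Which start these cells use was not examined, so these medians may not describe the promoters in use. The motif is its own reverse complement, so both strands give these counts, and DNA methylation was not measured here.

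The zinc finger genes of chromosome 19, most of which encode repressors that bind DNA, were more often lower than higher in CF. Of 211 tested, 61 were called lower and 5 higher in CF, with a median log2 change of -0.12 against 0.006 over all tested genes. The share called was 31.3%, beside 34.4% of all tested genes. Over all tested genes 16.7% were called lower and 17.7% higher, so the list stood apart in direction and not in share called. ZNF347 stood at 29.3, 31.6, 31.2, 30.7 and 33.8 CPM in WT and from 7.14 to 7.89 CPM (median 7.37) in CF (log2 change -2.08, SE 0.074, adjusted p = 4.5e-18), and ZNF677 at 38.2, 42.7, 37, 38.5 and 38.2 CPM in WT and from 8.92 to 11.9 CPM (median 10.7) in CF (log2 change -1.87, SE 0.073, adjusted p = 3.28e-17). Both were near 3.65 to 4.23-fold lower with no overlap between the lines. ZNF114 was among the 5 called higher, at 27.3 ± 3.19 CPM in WT and 46.4 ± 4.57 CPM in CF (SD, n = 5 and 6). These genes are similar in sequence, so reads could be split between copies, and how the deposited counting treated such reads is not given in the sources used here.

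Changes were not spread evenly along the chromosomes. In 15 of 252 bins of 10 Mb with at least 20 tested genes, the median log2 change passed 0.2 in size, 4 bins upward and 11 downward. On chromosome 8, 174 of 192 genes starting in the first 50 Mb were called lower and 1 higher, with a median log2 change of -0.93, a 1.91-fold lower level in CF. On chromosome 18, 56 of 67 genes in the first 20 Mb were called lower (median -0.53), and on chromosome 11 between 60 and 90 Mb 188 of 347 were lower and 52 higher (median -0.26). The next stretch of chromosome 11, to 100 Mb, had 24 of 33 genes higher and none lower (median 0.44). On chromosome 7 between 130 and 160 Mb, 126 of 169 genes were higher and 2 lower (median 0.54, 1.45-fold). The last bin past the limit, on chromosome 13 from 110 Mb, had 20 of 36 genes lower and 1 higher (median -0.22). The medians in normal glucose were -0.90, -0.49, -0.32, 0.50, 0.57 and -0.17 for the same stretches in the order given.

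**Figure D3:**
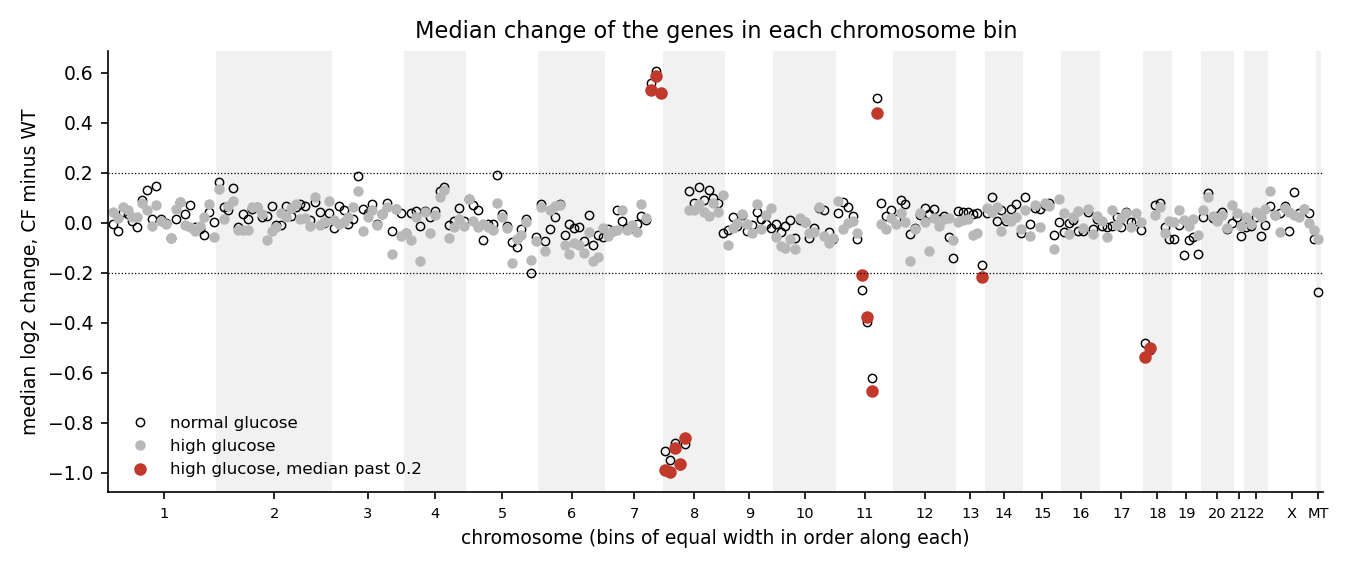
Each filled point is the median log2 change (CF minus WT, high glucose) of the genes in 1 of 252 chromosome bins of equal width, in order along chromosomes 1 to 22, X and MT, red where it passes 0.2 in size (dotted lines), and open circles give the same medians in normal glucose. The 15 red bins form runs on chromosomes 7, 8, 11 and 18 with a single bin on 13, and the open circles follow them.

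Genes in these 15 bins made up 645 of the 5357 called genes, so 76.4% of the 844 tested there were called against 32% of the 14735 tested elsewhere. Copy number was not measured here, and its part in these medians was not tested. Genes first named below that start in such a bin are marked there as lying in a shifted bin. Genes already named above, TCIM on chromosome 8 among them, carry no mark, whether or not they start in such a bin. Figure captions and the closing sections carry no marks either. List counts outside the bins are given where more than 1 called member lies inside them. Among the other lists described, exactly 1 called member lies inside for the CFTR partners, claudins, connexins and pannexins, plasminogen system, cytokines, hypoxia, glycolysis and NRF2.

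Genes of protein folding and glycosylation in the endoplasmic reticulum and Golgi were mostly higher in CF. These lists were examined because misfolded CFTR is retained and degraded in the endoplasmic reticulum. Misfolding was not measured here, and its part in these changes was not tested. Of 37 tested genes of the unfolded protein response, 21 were called higher and 1 lower (median log2 change 0.16), and outside the shifted bins 19 of 34 were higher and 0 lower. PDIA4, a disulfide isomerase of the endoplasmic reticulum that lies in a shifted bin, was read at 894, 849.5, 869, 744 and 694 CPM in WT and from 1622 to 1725 CPM (median 1656) in CF (log2 change 1.06, SE 0.048, adjusted p = 8.16e-16). Its relative PDIA3, outside those bins, had 852, 853, 908, 897 and 822 CPM in WT and from 1159 to 1328 CPM (median 1274) in CF (log2 change 0.53, SE 0.044, adjusted p = 1.56e-10). Neither gene's libraries overlapped between the lines. SYVN1, a ubiquitin ligase of endoplasmic reticulum degradation in a shifted bin, was the gene called lower, at 70.1 to 53 CPM from WT to CF (adjusted p = 1.25e-07). Of 28 genes of N-glycan processing, 15 were higher and 1 lower (median 0.19). MGAT3, which adds the bisecting N-acetylglucosamine, was 2.89-fold higher with 25.5, 24.9, 26.5, 25.5 and 24.5 CPM in WT and from 70.4 to 76.4 CPM (median 72.2) in CF, while MGAT4A, which starts a further branch, was lower (153 to 131 CPM, adjusted p = 0.000309).

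Partners that carry CFTR to and from the membrane moved in both directions. Of 39 tested folding, anchoring and regulatory partners, 12 were higher and 7 lower (median 0.063). The share called was 48.7%, beside 34.4% of all tested genes. Without the library set term 5 were higher and 3 lower, a share near that of all tested genes (1454 higher and 1582 lower of 15579). In libraries 1 to 3 alone 8 were higher and 4 lower, where 23.8% of all tested genes were called. DAB2, an adaptor for the uptake of CFTR from the surface, had 0.411, 0.33, 0.33, 0.26 and 0.0502 CPM in WT and from 2.98 to 5.17 CPM (median 4.11) in CF (log2 change 3.92, SE 0.25, adjusted p = 1.02e-12). MYO5B, the motor that recycles apical vesicles, was 2.59-fold higher (6.68 to 17.2 CPM), and LMTK2, a kinase that phosphorylates CFTR, was lower (79.2 to 66.2 CPM, adjusted p = 3.92e-05). The LMTK2 call was lost without the library set term.

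Other ion transport genes were divided as well. Of 16 sodium absorption genes, 5 were higher and 5 lower, with 1 higher and 5 lower in libraries 1 to 3 alone, 5 higher and 3 lower in libraries 4 to 6 alone, and 2 each way without the library set term. SCNN1A, which encodes the alpha chain of ENaC, the sodium channel of epithelia, rose from 73.4, 74, 74.1, 77.6 and 77.4 CPM in the WT libraries to a range from 107 to 118 CPM (median 110.1) in CF (log2 change 0.55, SE 0.042, adjusted p = 2.99e-11), with no overlap. SGK1, the kinase that keeps that channel at the surface, fell from 14.7 to 7.73 CPM, and the sodium-proton exchanger SLC9A2 from 13 to 5.67 CPM (adjusted p = 5.12e-09 and 4.22e-10). Of 46 genes of non-CFTR anion, potassium and water transport, 13 were higher and 12 lower (median 0.063), and outside the shifted bins 10 of 40 were higher and 10 lower. CLCA2, a regulator of chloride conductance, was 4.52-fold higher (3.42 to 16 CPM), and SLC12A2, the basolateral cotransporter that loads the cell with chloride, was 1.76-fold lower, with 26.2, 24.1, 26.7, 29.2 and 24 CPM in WT and from 14 to 15.5 CPM (median 14.9) in CF (log2 change -0.81, SE 0.072, adjusted p = 5.76e-10). LRRC8C, a subunit of the volume-regulated anion channel, was also lower (9.34 to 4.65 CPM), and CLIC3 was higher (77 to 114 CPM).

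Junction genes moved in both directions. TJP1, the scaffold of tight junctions, was slightly lower in CF, with 232, 219, 249, 295 and 304 CPM in WT and from 201 to 240.0 CPM (median 226) in CF (log2 change -0.23, SE 0.051, adjusted p = 0.000689), and its ranges overlapped. The call was lost without the library set term and in libraries 1 to 3 alone. OCLN, a tight junction membrane protein, did not pass the test (129 to 122 CPM, adjusted p = 0.247), but it passed in libraries 4 to 6 alone (log2 change -0.15, adjusted p = 0.0149) and not in libraries 1 to 3 alone (log2 change -0.025). The cadherin genes CDH1 and CDH3 were both higher, CDH1 at 809 ± 76.9 CPM in WT and 971 ± 65.3 CPM in CF (SD, n = 5 and 6) and CDH3 at 934 ± 21.7 CPM in WT and 1301 ± 57.7 CPM in CF, with a small overlap between the lines for CDH1 and none for CDH3. Of 11 claudins, 2 were higher and 3 lower: CLDN4 and CLDN6 rose by 0.22 and 0.28 on the log2 scale, CLDN11 changed by -1.56 and CLDN23, in a shifted bin, by -1.07. The CLDN4 call did not hold in libraries 1 to 3 alone. Of 11 connexins and pannexins, 6 were higher and 1 lower (median 0.31), with GJB2 at 33, 37.7, 36.5, 31.7 and 35.1 CPM in WT and from 56.2 to 78 CPM (median 69.1) in CF (log2 change 0.94, SE 0.075, adjusted p = 1.37e-09). PANX1 (193 to 285 CPM, in a shifted bin) was also higher.

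Keratins of basal and simple epithelium moved in both directions. Of 15 tested keratins, 6 were higher and 3 lower (median 0.11). KRT19 rose from 1003 to 1424 CPM and KRT17 from 389.9 to 511 CPM between WT and CF, whereas KRT80 fell from 199.7 to 164 CPM. KRT5 and KRT14, which pair in basal cells, moved apart: KRT5 had 39.4, 34, 42.2, 44.9 and 35.8 CPM in WT and from 58.2 to 104 CPM (median 80.0) in CF (log2 change 0.97, SE 0.12, adjusted p = 9.57e-05), and KRT14 had 5.52, 5.21, 3.41, 3.74 and 3.51 CPM in WT and from 1.31 to 2.78 CPM (median 1.46) in CF (log2 change -1.30, SE 0.19, adjusted p = 3.18e-06). TP63, the basal cell regulator, was too low to be tested.

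Targets of YAP, the coactivator that responds to tension and cell density, were mostly lower in CF. Of 21 tested, 14 were called lower and 1 higher, with a median log2 change of -0.33, and outside the shifted bins 12 of 18 were lower and 0 higher. CTGF, a matricellular protein, had 64.2, 55.9, 61.2, 53.3 and 52.8 CPM in WT and from 17 to 20.3 CPM (median 19) in CF, a 3.05-fold difference (log2 change -1.61, SE 0.062, adjusted p = 2.1e-17). CYR61, its relative, had 720.2, 668, 677, 726 and 679 CPM in WT and from 336 to 429 CPM (median 394) in CF (log2 change -0.84, SE 0.048, adjusted p = 8.2e-14). In both, the lowest WT library was well above the highest CF library. TGFB2 was 2.43-fold lower (25.1 to 10.5 CPM) and DOCK5, in a shifted bin, 2.3-fold lower (106 to 47.7 CPM), and AMOTL1, an inhibitor of YAP and also in a shifted bin, was the 1 gene called higher (374 to 538 CPM).

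Genes of the actin cytoskeleton and of growth factor signalling were more often lower than higher in CF. Of 42 actin, myosin and contractility genes, 19 were lower and 8 higher (median -0.099), and outside the shifted bins 15 of 37 were lower and 7 higher. The regulatory light chains MYL12A and MYL12B, neighbours in a shifted bin, fell from 318 to 188 CPM and from 464 to 323 CPM, while LCP1, an actin bundling protein, rose from 8.46 to 17.1 CPM and CNN3, a calponin, from 234 to 292 CPM. Of 35 genes of the EGF receptor family, its ligands and ERK feedback, 17 were lower and 6 higher (median -0.25), and outside the bins 14 of 32 were lower and 6 higher. DUSP4, a phosphatase that ERK induces, was 2.12-fold lower (15.2 to 7.23 CPM) and the receptor FGFR1 1.76-fold lower (24.8 to 14.2 CPM), both in shifted bins. LRIG1, which limits EGF receptor signalling, had 2.06, 1.19, 1.87, 1.61 and 2.11 CPM in WT and from 5.49 to 8.74 CPM (median 6.78) in CF (log2 change 1.98, SE 0.16, adjusted p = 5.91e-11), one of the 6 called higher, as was ERBB3, a receptor of the family (205 to 283 CPM).

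Matrix genes were strongly divided. THBS1, thrombospondin, an adhesive glycoprotein that activates latent TGF-beta, was read at 1998, 1753, 2053, 2544 and 2129 CPM in WT and from 727 to 930.2 CPM (median 851) in CF, a 2.51-fold lower level (log2 change -1.33, SE 0.088, adjusted p = 2.13e-07). TGFBI, a matrix protein that TGF-beta induces, went the other way, with 288, 301, 293, 287 and 284 CPM in WT and from 601 to 908 CPM (median 777) in CF (log2 change 1.36, SE 0.075, adjusted p = 9.35e-10). Neither overlapped between the lines, and the CF libraries of TGFBI spread more widely than the WT ones. Of 29 interstitial matrix genes, 11 were lower and 10 higher (9 and 10 of 25 outside the shifted bins), among them SPARC (higher, 791 to 999 CPM). Of 37 integrin, hemidesmosome and basement membrane genes, 16 were lower and 13 higher, and outside the shifted bins 13 of 34 were lower and 13 higher. These numbers became 10 lower and 5 higher without the library set term and 14 lower and 5 higher in libraries 1 to 3 alone. NID1 and COL4A1, basement membrane components, fell from 95 to 52.9 CPM and from 419.5 to 270.0 CPM (COL4A1 in a shifted bin), and COL17A1, the hemidesmosomal collagen, rose from 494 to 908 CPM and ITGB6 from 636 to 762 CPM. LOXL2, which crosslinks collagen and lies in a shifted bin, fell from 1205 to 601 CPM.

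Proteases and their inhibitors were divided in the same way. Of 27 metalloproteinases and inhibitors, 11 were higher and 11 lower, and outside the shifted bins 11 of 25 were higher and 9 lower. TIMP3, an inhibitor, was 2.25-fold higher (10.8 to 24.1 CPM) and the membrane-bound collagenase MMP14 1.36-fold (752 to 1016 CPM), whereas ADAM19 was lower (32.8 to 22.2 CPM) and so was ADAM9, in a shifted bin (941 to 563 CPM). Of 32 genes of the plasminogen system, serpins and surface serine proteases, 15 were higher and 8 lower. KLK7, a kallikrein protease of stratified epithelium, had 301, 290, 321, 348 and 309.7 CPM in WT and from 107 to 120.1 CPM (median 115) in CF (log2 change -1.46, SE 0.046, adjusted p = 2.23e-19), whereas KLK8, another kallikrein, was 2.94-fold higher (2.65 to 7.66 CPM). PLAT, the tissue plasminogen activator, in a shifted bin, fell from 35.9 to 12.9 CPM.

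Epithelial defence genes of the S100 and antiprotease kind were more often higher than lower in CF. S100A8 had 31.4, 30.2, 26, 16.9 and 17.7 CPM in WT and from 75.8 to 144 CPM (median 106) in CF (log2 change 2.23, SE 0.057, adjusted p = 3.44e-21), and its partner S100A9 in calprotectin, which binds zinc and manganese away from microbes, had 384, 376, 372, 304 and 270.4 CPM in WT and from 526 to 816 CPM (median 692) in CF (log2 change 1.03, SE 0.045, adjusted p = 3.08e-16). Libraries 1 to 3 were higher than 4 to 6 in both lines for S100A8, and the lines did not overlap. SLPI, the leukocyte protease inhibitor of airway secretions, was 2.3-fold higher (62.5 to 139 CPM). In total 12 of 27 innate defence, antiprotease and complement genes were higher and 6 lower (median 0.20), the lower ones including NOD2, a sensor of bacterial cell walls (34.7 to 19.2 CPM), and SAA1, an acute phase protein (78.7 to 56.8 CPM). Of 33 S100 proteins, annexins and genes of the cornified envelope, 15 were higher and 4 lower (8 and 2 without the library set term), led by S100P (3.94-fold higher) on one side and the transglutaminase TGM2 (806 to 528 CPM) on the other.

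Cytokine genes were more often lower than higher, and interferon-stimulated genes the reverse. Of 52 cytokine, chemokine and NF-kB genes, 18 were lower and 9 higher (median -0.10), which became 9 and 6 without the library set term. CCL2, which draws monocytes, had 28, 23.6, 27.5, 27.6 and 17.9 CPM in WT and from 3.32 to 4.75 CPM (median 4.3) in CF, a 6.02-fold difference (log2 change -2.59, SE 0.12, adjusted p = 3.51e-14). TNFSF15 was 1.83-fold lower (60.9 to 33.5 CPM), while the interleukin receptor IL1R1 was 1.6-fold higher (90.6 to 147 CPM) and the mucosal chemokine CCL28 1.97-fold higher (11.4 to 22.2 CPM). Of 58 interferon response genes, 22 were higher and 5 lower (median 0.083), among them IFI6 (56.6 to 94.8 CPM) and IFITM3 (167 to 223 CPM), which blocks viral entry, on the higher side and RNF213 (505 to 420.0 CPM) and DDX60 (145 to 119 CPM) on the lower side. The lower genes of this list numbered 4 in libraries 1 to 3 alone and 14 in libraries 4 to 6 alone, and 14 were higher and 3 lower without the library set term. The RNF213 call was lost without the library set term and the DDX60 call in libraries 1 to 3 alone. Of 24 antigen presentation genes, 11 were higher and 2 lower, and their number called fell from 13 to 6 without WT library 4, 7 without WT library 5 and 8 without CF library 6. In libraries 1 to 3 alone 4 were higher and 2 lower, and without the library set term 7 were higher and 1 lower. HLA-G, the class I molecule of the placenta, was 19.7-fold lower in CF (4.29, 4.82, 4.24, 3.95 and 2.56 CPM in WT and from 0.0541 to 0.29 CPM (median 0.199) in CF), and HLA-DMA, which loads class II molecules, was higher (2.83 to 6.0 CPM). HLA genes share sequence, so their counts are uncertain.

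Prostaglandin genes other than PTGS2 also moved. PTGS1, the constitutive cyclooxygenase, had 5.58, 5.08, 5.39, 3.69 and 4.62 CPM in WT and from 11.3 to 20.1 CPM (median 15.4) in CF (log2 change 1.65, SE 0.14, adjusted p = 1.19e-09). ABCC4, an exporter of prostaglandins, fell from 49.4 to 32.1 CPM and ALOX5, which makes leukotrienes, from 3.46 to 1.84 CPM. Of the 19 tested genes of prostaglandin synthesis and breakdown, 6 were higher and 3 lower.

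Most ribosomal protein genes were higher in CF. Of 82 tested, 72 were called higher in CF and 1 lower, with a median log2 change of 0.37. RPL37A had 372, 382, 368, 296 and 276 CPM in WT and from 419.7 to 539.9 CPM (median 449) in CF (log2 change 0.51, SE 0.047, adjusted p = 1.18e-09), and RPL27A had 281, 288, 262, 214 and 204 CPM in WT and from 287 to 385 CPM (median 335) in CF (log2 change 0.47, SE 0.042, adjusted p = 7.46e-10). The lines did not overlap for RPL37A, and for RPL27A the lowest CF library lay just under the highest WT library. Over the list, 9 of 82 genes had no overlap between the lines, where 14.4% of all tested genes had none. Of the 72 higher genes, 2 differed by more than 1.5-fold. The share of counts in these genes was 3.15% ± 0.545 in WT and 3.82% ± 0.558 in CF (SD, n = 5 and 6), a difference of 0.678 percentage points with an exact two-sided permutation p of 0.0801, where the smallest p possible is 0.00216. Within libraries 1 to 3 the WT share lay between 3.31% and 3.79% and the CF share between 4.07% and 4.49%, and within libraries 4 to 6 between 2.53% and 2.63% and between 3.28% and 3.41%, so the lines did not overlap within either set (exact permutation p = 0.1 in each, the smallest those sizes allow). Without the library set term 25 of the genes were called. RPL39L, a copy of RPL39 outside this pattern, was the gene called lower (43.7 to 33.7 CPM), a call lost without that term. Ribosomal protein genes have many processed copies in the genome, so reads could be split between them.

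Nuclear genes of the respiratory chain were more often higher than lower in CF. Called protein-coding genes of the mitochondrial genome were higher in 1 library set alone and lower in the other alone. Of 88 subunits encoded in the nucleus, 39 were called higher and 3 lower (median 0.13), and outside the shifted bins 36 of 83 were higher and 2 lower. In libraries 1 to 3 alone 22 were higher and 1 lower, and without the library set term 5 were called. ATP5F1E, a subunit of ATP synthase, was read at 144, 156, 128, 80.2 and 75.2 CPM in WT and from 99.6 to 208 CPM (median 142) in CF (log2 change 0.43, SE 0.052, adjusted p = 2.36e-07), with libraries 1 to 3 above libraries 4 to 6 in both lines and an overlap between the lines. The ATP5F1E call was lost without the library set term, and NDUFB2, the other leading subunit, lies in a shifted bin (82.9 to 141 CPM). Of 24 tested genes of the mitochondrial genome, 1 was called higher in CF and 0 lower over all 11 libraries, by edgeR at an adjusted p of 0.05. The gene called was a ribosomal RNA gene, and none of the 13 protein-coding genes was called. Within libraries 1 to 3 alone 2 of them were higher and 0 lower in CF (median 0.16), and within libraries 4 to 6 alone 0 were higher and 8 lower (median -0.41). The share of counts in all genes of the mitochondrial genome, ribosomal and transfer RNA genes included, was 2.71% ± 0.549 in WT and 2.61% ± 0.139 in CF (SD, n = 5 and 6, exact two-sided permutation p = 0.725). Within libraries 1 to 3 the CF share was 0.209 percentage points above the WT share (2.37% to 2.70% against 2.10% to 2.54%, exact permutation p = 0.3), and within libraries 4 to 6 it lay below without overlap (2.54% to 2.77% against 2.90% to 3.56%, exact permutation p = 0.1, the smallest those sizes allow).

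Genes of glucose use and of the response to low oxygen were more often higher in CF. TXNIP, an alpha-arrestin that glucose induces and that restrains glucose uptake, had 667, 736, 716, 621 and 634 CPM in WT and from 892 to 1016 CPM (median 957) in CF (log2 change 0.51, SE 0.048, adjusted p = 1.65e-09). Of 43 genes of glycolysis and glucose transport, 17 were higher and 1 lower (median 0.083). This was 41.9% of them, beside 34.4% of all tested genes, and 3 of the 17 higher genes differed by more than 1.5-fold. GAPDH had 2542, 2662, 2715, 2706 and 2462 CPM in WT and from 3374 to 3907 CPM (median 3534) in CF (log2 change 0.45, SE 0.043, adjusted p = 1.65e-09), the isozyme ALDOC was 1.98-fold higher (10.2 to 20.6 CPM), and so was the transporter SLC2A10 (1.64-fold, 34 to 56.1 CPM). GPI, which acts at the second step of glycolysis, was the 1 gene called lower (309 to 282 CPM), a call lost without the library set term. Of 33 hypoxia response genes, 13 were higher and 1 lower (median 0.16). The share called was 42.4%, beside 34.4% of all tested genes. The number called fell from 14 to 9 without CF library 3. In libraries 1 to 3 alone 12 were higher and 5 lower. Libraries 4 to 6 alone had 15 higher and 6 lower. EPAS1, which encodes an oxygen-regulated transcription factor, rose from 236 to 320.5 CPM and VEGFA from 135 to 174 CPM, and BNIP3L, a mitophagy receptor in a shifted bin, fell from 369 to 189 CPM.

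Genes of a mixed list of NRF2 and antioxidant genes were more often lower than higher in CF. Of 38 tested, 14 were lower and 3 higher (median -0.097). PRDX2, a peroxiredoxin that removes hydrogen peroxide, had 25.1, 23.6, 24.9, 25.2 and 22.8 CPM in WT and from 4.54 to 5.67 CPM (median 4.84) in CF, a 4.8-fold lower level (log2 change -2.26, SE 0.087, adjusted p = 2.1e-17). Glutathione reductase (GSR), in a shifted bin, was 2.2-fold lower (83 to 37.6 CPM), and TXNRD1, thioredoxin reductase, fell from 314 to 233 CPM. OSGIN1 was among the 3 higher (6.67 to 9.79 CPM), a call lost in libraries 4 to 6 alone. SLC7A11, the cystine importer that feeds glutathione synthesis and is also a target of ATF4, had 54.5, 60.6, 62, 76.5 and 65.8 CPM in WT and from 15.9 to 31.8 CPM (median 20.5) in CF (log2 change -1.54, SE 0.17, adjusted p = 0.000111). Of 30 ATF4 targets and genes of serine synthesis, 8 were lower and 3 higher over all libraries (36.7% called, beside 34.4% of all tested genes), with 3 lower and 9 higher in libraries 1 to 3 alone and 20 lower and 2 higher in libraries 4 to 6 alone. CTH, which makes cysteine, was among those lower (7.34 to 4.58 CPM) and MTHFD1L, of mitochondrial folate metabolism, among those higher (134 to 186 CPM), as was ATF5 (21.9 to 26.5 CPM).

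Lipid genes moved in both directions. Of 45 sterol and fatty acid synthesis genes, 13 were lower and 7 higher (median -0.080). Outside the shifted bins 7 of 38 were lower and 6 higher, near the shares over all genes tested there (2166 lower and 2546 higher of 14735). Over all 45, 7 were lower and 4 higher without the library set term. FDFT1, squalene synthase, fell from 219.6 to 114 CPM and INSIG1, the brake on sterol synthesis, rose from 150.3 to 205 CPM, both in shifted bins, and MYLIP, which degrades the LDL receptor, rose from 13.3 to 22.3 CPM. Of 31 genes of lipid droplets and fatty acid handling, 10 were higher and 4 lower (9 and 2 of 28 outside the shifted bins, and 5 and 4 of all in libraries 1 to 3 alone), among them ACSL5 (2.88-fold higher, 4.41 to 12.8 CPM) and MGLL (66 to 89.7 CPM), and on the lower side the fatty acid transporter SLC27A2 (8.88 to 3.59 CPM) and LPIN2, in a shifted bin (53.2 to 38.5 CPM).

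Cell cycle genes were lower more often than higher. Of 52 tested, 16 were lower and 6 higher (median -0.028), and 42.3% were called, beside 34.4% of all tested genes. In libraries 1 to 3 alone 7 were lower and in libraries 4 to 6 alone 21, with 4 higher in each. Of all tested genes, 23.8% and 36.3% were called in those sets alone. Without the library set term 6 were lower and 1 higher, beside 1582 lower and 1454 higher of all 15579 tested genes. Outside the shifted bins 14 of 49 were lower and 6 higher. CCND1, the cyclin that starts the passage into DNA replication, lies in a shifted bin and had 86.8, 91.3, 104, 111 and 108 CPM in WT and from 32.4 to 41.9 CPM (median 37.3) in CF (log2 change -1.42, SE 0.083, adjusted p = 7.89e-10). TYMS, thymidylate synthase, also in a shifted bin, fell from 154 to 106 CPM, and CDKN1B, an inhibitor of cyclin-dependent kinases, rose from 109 to 135 CPM.

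**Figure D4:**
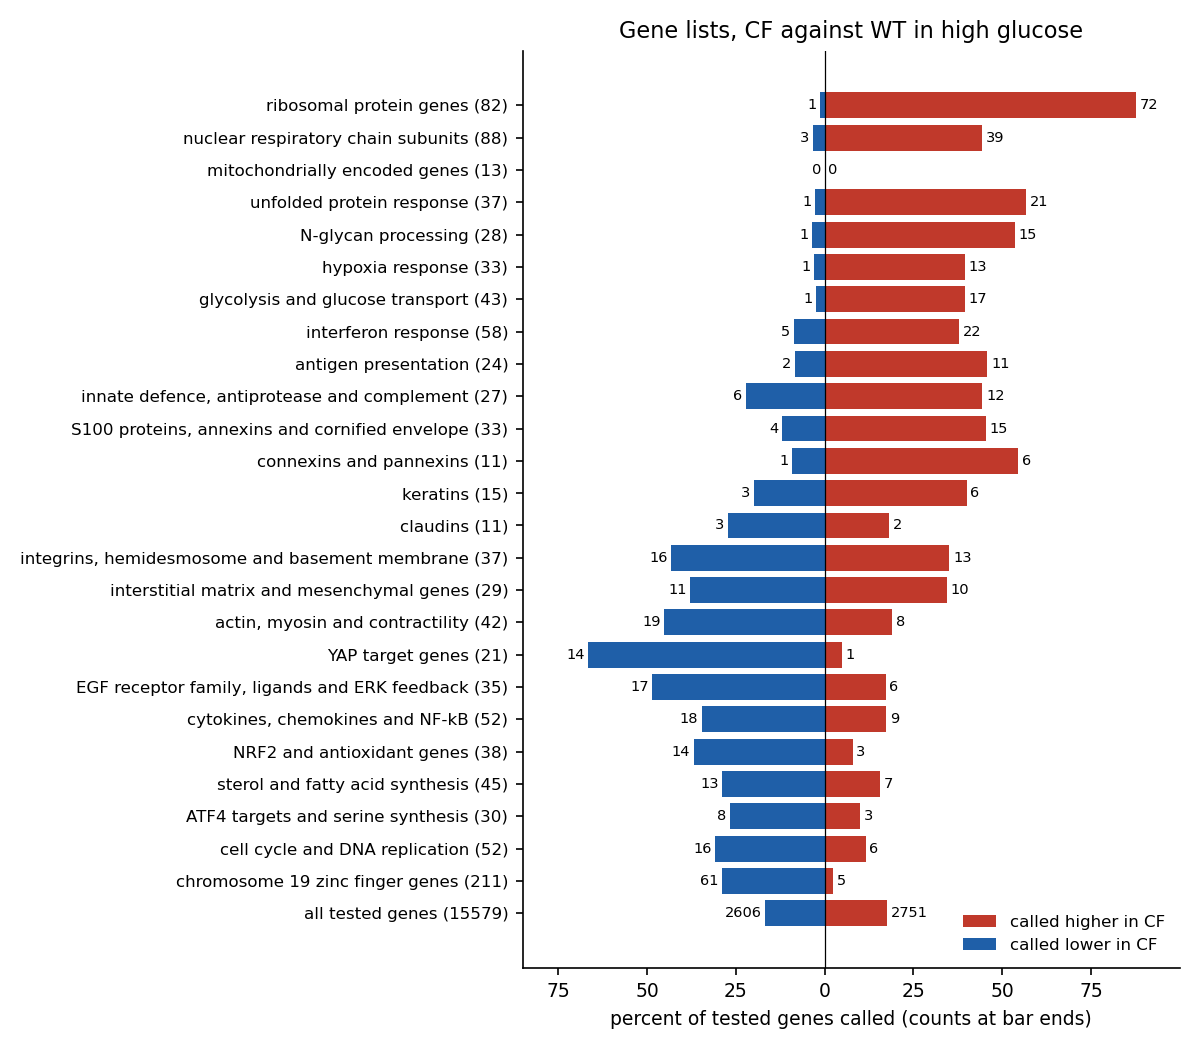
For 25 gene lists and for all tested genes, the bars give the percent of tested genes called higher (red, right) or lower (blue, left) in CF in high glucose, with the number tested in parentheses and the numbers called at the bar ends. Ribosomal protein genes (72 of 82 higher) and YAP targets (14 of 21 lower) have the largest shares higher and lower among these lists, against 17.7% higher and 16.7% lower over all tested genes.

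The same contrast in normal glucose, from 12 other libraries, gave 5023 called genes of 15394 (32.6%). Among 15242 genes tested at both concentrations, 3431 were called in the same direction at both, which is 64.7% of those called in high and 68.6% of those called in normal glucose, and 23 were called in opposite directions. Across genes, none of which is an independent replicate, both sets of log2 changes had a Pearson r of 0.900 and a Spearman rho of 0.708. Of 587 genes that differed by at least 2-fold in high glucose and were tested in normal glucose, 550 were called in the same direction there. MAN1A1, PTPRG and PTGS2 had log2 changes of 7.02, 4.72 and 4.26 in normal glucose, and SRGN, MUC4 and ZFP42 of -5.64, -5.90 and -8.56.

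Few genes differed between the lines by an amount that itself depended on glucose. The difference of the 2 contrasts passed an adjusted p of 0.05 for 146 of 16338 genes (0.894%), 70 upward and 76 downward. This count depended on single libraries, from 61 without WT high glucose library 3 to 326 without CF normal glucose library 3, and it was 6 without the library set term. PLIN2, which coats lipid droplets, was higher in CF at both concentrations but by less in high glucose, with 26.1, 26.7, 25.5, 29 and 29.8 CPM in WT and from 36 to 44.3 CPM (median 37.1) in CF there (log2 change 0.49 in high and 1.27 in normal glucose, difference -0.79, SE 0.11, adjusted p = 0.000585). CTGF was lower in CF by more in high glucose (log2 change -1.61 against -0.99, difference -0.63, SE 0.098, adjusted p = 0.000807). HDAC9, a class IIa deacetylase, changed sign, from 0.32 in normal to -0.26 in high glucose (difference -0.59, SE 0.095, adjusted p = 0.000926), with 35.5, 38.1, 40.2, 37.4 and 35.1 CPM in WT and from 28.4 to 33.9 CPM (median 30.6) in CF in high glucose. PHLDB2, FNIP1 and F3 (tissue factor, which starts coagulation) changed sign in the same sense, from 0.17, 0.29 and 0.26 in normal to -0.24, -0.24 and -0.15 in high glucose, and the F3 call in high glucose was lost without the library set term and in libraries 4 to 6 alone. FHL2, a LIM domain cofactor of transcription, remained higher but by less (0.41 against 0.94), and ESPN, an actin bundler of microvilli, was higher in high glucose by 0.73 on the log2 scale and by 0.14 in normal glucose, where it was not called. APCDD1, an inhibitor of Wnt signalling, and PPP1R3B, which directs glycogen synthesis, were lower at both, with log2 changes of -0.85 and -0.85 in high and -1.32 and -0.34 in normal glucose, both in shifted bins. The TXNIP difference between the concentrations did not pass the test (difference 0.79, SE 0.21, adjusted p = 0.084), although its change was called in high glucose (0.51) and not in normal glucose (-0.27, adjusted p = 0.256).

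**Figure D5:**
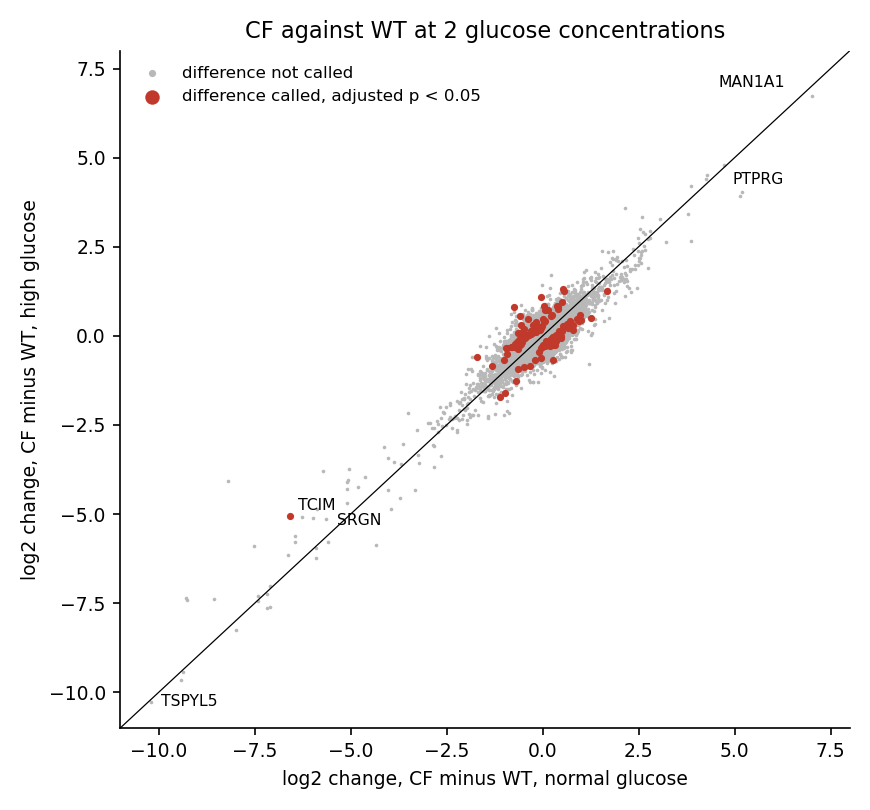
Each point is a gene tested at both concentrations, with the log2 change (CF minus WT) in normal glucose on the horizontal and in high glucose on the vertical axis, and the line marks equal change. Genes with the largest changes lie along the line, and the red points, whose difference between concentrations was called, are mostly at small changes, with TCIM the farthest out.

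The balance of calls in the cytokine and EGF receptor lists differed between the concentrations, and neither shift was tested as a list. Cytokine genes had 9 higher and 18 lower in high glucose and 18 higher and 8 lower in normal glucose, with 6 of the 52 genes called for the difference. For the EGF receptor list the numbers were 6 higher and 17 lower against 11 higher and 10 lower, with 5 of the 35 called for the difference. YAP targets had 1 higher and 14 lower against 4 higher and 13 lower.

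The contrast was also examined within each library set, since libraries 1 to 3 and 4 to 6 stood apart. Libraries 1 to 3 alone gave 3641 called genes (23.8% of those tested) and libraries 4 to 6 alone, with 2 WT libraries, 5862 (36.3%). A test of whether the CF minus WT change differed between the sets, chosen after seeing the data, was passed by 758 of 15579 genes (4.87%), of which 313 were among the genes called for CF against WT, 5.84% of those. Called in both sets alone were 2493 genes in the same direction and 66 in opposite directions.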

How the data were processed

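Poly(A) RNA was sequenced from 26 libraries, of which the 11 from CF and WT cells on Transwells in high glucose were compared, with 12 from normal glucose beside them. Per the submitters' processing notes the reads were aligned with HISAT2 to hg38, while the counting tool and strand setting were not given in the sources used here. The authors deposited whole-number read counts per gene and, for the same libraries, FPKM values, which were used here only in alternatives. Deposited gene coordinates equal those of GENCODE 29. Counts were tested with edgeR 4.0.16 (TMM, filterByExpr with a minimum count of 10, robust quasi-likelihood fit, Benjamini-Hochberg adjustment over all tested genes, 0.05) in R 4.3.3, with terms for line and library set (numbers 1 to 3 or 4 to 6) and 8 residual degrees of freedom. CPM are counts scaled by TMM library size, and log2 changes are CF minus WT. Alternatives used DESeq2 1.42.0, limma 3.58.1 on log2 (FPKM + 1) or log2 (FPKM + 0.1), other filters and scaling, a replicate block and each library left out. Genes named are CFTR, TXNIP, CLDN4, TJP1, OCLN and CDH1, the 12 highest and 12 lowest called protein-coding genes of at least 5 CPM without overlap, up to 2 called genes each way per list by lowest p with at least 1 CPM in a line, 5 genes on in either line, and the 10 lowest p for the difference between concentrations. CYR61, THBS1, KRT5, S100A9 and GAPDH, and cell type markers apart, were named after their values were seen. ZNF85 and ZNF135, whose promoters are printed, were also picked outside this rule. Not every gene chosen by this rule is reported here. The members and lists were chosen with earlier results of these data known. Promoters came from RefSeq, matched by symbol or a unique synonym.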

Additional observations from a re-analysis of the deposited data

Results flagged for a closer look

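In 14 of 313 groups of 5 or 6 libraries examined, 1 library stood apart from the rest by Dixon's criterion, which chance meets in about 1 in 20 groups. In CPM, the CF libraries apart were library 5 for ALOX5 (2.44) and COL22A1 (0.407), library 3 for HLA-DMA (7.02) and ZNF43 (0.119), library 2 for KRT14 (2.78) and ZSCAN18 (0.111), library 1 for OCLN (136) and SLC2A10 (46.8) and library 4 for SGK1 (9.74). The WT libraries apart were library 2 for KRT19 (1042 CPM), TGM2 (732.8 CPM) and ZNF677 (42.7 CPM) and library 1 for MAN1A1 (0.352 CPM). The share of counts in the 10 most abundant genes was 5.65% in CF library 2.

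The CF minus WT log2 change differed between high and normal glucose, by the edgeR test of the difference, for 15 genes named in the text. The difference (high minus normal) was above 0 for APCDD1 (0.47), CLIC3 (0.33), ESPN (0.60) and TCIM (1.54). It was below 0 for BNIP3L (-0.30), CTGF (-0.63), DDX60 (-0.34), F3 (-0.42), FHL2 (-0.55), FNIP1 (-0.54), HDAC9 (-0.59), PHLDB2 (-0.42), PLIN2 (-0.79), PPP1R3B (-0.52) and VEGFA (-0.38). The change differed between library sets for 758 genes.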

How the results depend on the processing

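The 5357 genes called for CF against WT in high glucose became 3036 without the library set term, and leaving out 1 library at a time gave 4574 to 5393. With a replicate block in place of that term 4189 were called. Same-numbered CF and WT libraries were no more alike than other CF and WT pairs of the same library set. Once line and set means were taken out, their deviations had a mean correlation of -0.174 over 5 pairs, beside -0.175 for the other pairs. Taking out those means by itself pulls such correlations below 0, so only the comparison between these values is informative. The 146 genes called for the difference between concentrations became 6 without the library set term, 73 with a replicate block, 353 with DESeq2 and 254 without a low-count filter, and 61 to 326 with 1 library left out. Counts under 1.5 times away came from the other settings for this difference, but leaving out CF high glucose library 6 gave 90, CF normal glucose libraries 5 and 6 gave 79 and 76, WT high glucose library 2 gave 87, and WT normal glucose libraries 3 and 6 gave 82 and 79. The CFTR change turned from -0.02 to 0.063 in libraries 1 to 3 alone and to 0.026 without WT high glucose library 4 (range -0.056 to 0.026 with 1 library left out). The cause of these shifts was not tested. Depth limits genes near 0 counts, where folds are bounds.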
